A study of Homo sapiens with 20 samples.

Results

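The 51 genes described here encode the machinery that licenses origins of DNA replication and copies DNA. They were chosen as a list of named genes, and all 51 were among the 13787 genes tested of 19775 measured. Per the labels, 5 established human lines of T cell acute lymphoblastic leukaemia (T-ALL1, KOPT-K, HPB-ALL, DND41 and CEM) were cultured for 16 h with the NBD peptide or with a control peptide. Each line and peptide had 2 Affymetrix U133 Plus 2.0 arrays, 20 in all, and the only stated difference between the 2 groups of a line is the peptide. The NBD peptide carries the NEMO-binding domain of the IkB kinase subunits and parts them from their regulatory subunit NEMO, so that it blocks canonical NF-kB signalling. The labels give its dose in conflicting units, and no statement here rests on the dose. They do not state that both arrays of a line and peptide were grown as independent cultures. The p-values therefore reflect no more than the variation from array to array, and this may be technical. Each line stands for 1 leukaemia grown in culture, without the bone marrow or thymus around it.

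Replication of a chromosome begins in G1, when the origin recognition complex (ORC1 to ORC6) recruits CDC6 and CDT1, which load the MCM2 to MCM7 helicase onto DNA. In S phase the kinase CDC7 with its partner DBF4 activates that helicase, MCM10, CDC45 and the GINS proteins join it, and DNA polymerases, the PCNA clamp and the RPA single-strand binding complex follow. Many of these genes are transcribed late in G1 under E2F transcription factors, and their levels are high in lines that divide fast, as leukaemia lines do.

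Promoter sequences of members whose results are described below are shown because they carry E2F words. A window of 250 bases before and 50 after the transcription start was found in RefSeq (GRCh38.p14) for 45 of the 51 genes. The words searched, spellings of the motif that E2F factors bind, were TTTCCCGC, TTTCGCGC, TTTGCCGC and TTTGGCGC, on both strands, where a word on 1 strand can overlap a word on the other. They stood in 22 of the 45 windows (48.9%), against 908 of 27305 windows of all genes (3.33%). A match is a description of these letters, not a bound site. The 100 bases before the start follow 5′ to 3′ on the gene's strand, with the words in capitals.
CDT1: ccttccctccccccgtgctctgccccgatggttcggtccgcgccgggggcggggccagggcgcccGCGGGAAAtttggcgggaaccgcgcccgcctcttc
MCM6: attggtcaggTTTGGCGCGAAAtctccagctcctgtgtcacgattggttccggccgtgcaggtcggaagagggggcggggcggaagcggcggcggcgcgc
MCM7: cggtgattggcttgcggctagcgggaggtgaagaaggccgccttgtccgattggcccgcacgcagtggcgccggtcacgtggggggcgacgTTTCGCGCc
GINS2: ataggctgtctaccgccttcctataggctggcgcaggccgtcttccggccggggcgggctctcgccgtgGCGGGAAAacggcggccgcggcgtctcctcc
DTL: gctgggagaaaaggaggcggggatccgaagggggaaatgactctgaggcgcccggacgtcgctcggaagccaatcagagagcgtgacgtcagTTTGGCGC
UHRF1: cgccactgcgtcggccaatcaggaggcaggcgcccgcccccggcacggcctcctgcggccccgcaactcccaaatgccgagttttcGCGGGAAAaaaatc
POLA2: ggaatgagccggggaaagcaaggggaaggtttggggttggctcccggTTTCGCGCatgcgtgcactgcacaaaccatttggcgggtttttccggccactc
These windows lie for CDT1 at chr16:88803689-88803788 on the plus strand, for MCM6 at chr2:135876444-135876543 on the minus strand, for MCM7 at chr7:100101398-100101497 on the minus strand, for GINS2 at chr16:85688955-85689054 on the minus strand, for DTL at chr1:212035648-212035747 on the plus strand, for UHRF1 at chr19:4909401-4909500 on the plus strand and for POLA2 at chr11:65261862-65261961 on the plus strand. In MCM6 a word and its overlapping partner on the other strand form 1 run of capitals, and in DTL, MCM7 and UHRF1 the word lies within 20 bases of the start. The CCAAT box, CCAAT or ATTGG, stood in 26 of the 45 windows (57.8%) and in 35.7% of all windows.

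Arrays of 1 group correlated at r = 0.992 to 0.998. The T-ALL1 control arrays stood apart. Their log2 difference between the 3′ and the 5′ actin control probe sets, which is larger where RNA is more degraded, was 1.07 and 0.992 on the T-ALL1 NBD arrays, against 3.16 and 2.05 on the control arrays, and 0.726 to 1.81 on the 16 arrays of the other lines. Control 1 of T-ALL1 was the farthest, and T-ALL1 counts and calls are therefore given with and without it. The T lineage markers CD3D, CD3E, CD3G, CD247, CD7 and LCK were above the filter on low values (an intensity of 31.96) on all 20 arrays, whereas CD2 lay below it on the 4 DND41 arrays and CD5 on 2 of them. The 8 T lineage markers summed to less on both NBD arrays than on both control arrays in every line. In DND41 they summed to 15862 and 16527 with NBD, against 24261 and 25004 with the control peptide. In T-ALL1 they summed to 10536 and 11356 with NBD, against 13274 and 14037 with the control peptide. The 4 measured B cell markers summed there to 125 and 133 against 109 and 138, the 5 myeloid markers to 158 and 162 against 143 and 146, and the 6 fibroblast and epithelial markers to 295 and 322 against 263 and 299. MS4A1 of B cells, CD14, LYZ and MPO of myeloid cells, and COL1A2 and CDH1 lay below the filter on all 20 arrays, while the B cell gene CD79A reached 2813 in DND41. CD79B of B cells (34 to 95), ITGAM of myeloid cells (33 to 58) and COL1A1 (110 to 204) were above it on all 20 arrays. CD79A was at or above it on 19 arrays, CSF1R and DCN on 8 each, PAX5 on 7, KRT18 on 3 and EPCAM on 2. The part of these markers in the results was not tested. In such bulk samples fewer cells in S phase and less RNA per cell cannot be told apart.

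The question of the design is what the NBD peptide does to each line. On the average of the 5 lines, 4 of the 51 genes rose and 2 fell. CDT1, which brings the MCM helicase to origins, rose by 0.32 ± 0.08 in log2 units (± SE from 2 arrays per group; 1.25-fold), and its partner CDC6 by 0.18 ± 0.05. DTL, the substrate receptor of the ubiquitin ligase that destroys CDT1 in S phase, rose by 0.13 ± 0.03, and POLD3, an accessory subunit of DNA polymerase delta, by 0.11 ± 0.03. POLA2, the regulatory subunit of the polymerase alpha and primase complex, fell by 0.16 ± 0.04, and RPA3, the smallest RPA subunit, by 0.15 ± 0.04. A gene is called changed here where limma's Benjamini-Hochberg adjusted p over all 13787 genes is below 0.05. The adjusted p was 0.0292 for CDT1, 0.0418 for CDC6, 0.0142 for DTL, 0.0232 for POLD3, 0.0332 for POLA2 and 0.0332 for RPA3. Without T-ALL1 control 1 the averages were 0.40 for CDT1, 0.14 for CDC6, 0.14 for DTL, 0.10 for POLD3, -0.14 for POLA2 and -0.12 for RPA3. Over the 4 lines other than T-ALL1 they were 0.20 for CDT1, 0.04 for CDC6, 0.08 for DTL, 0.06 for POLD3, -0.17 for POLA2 and -0.15 for RPA3, so the 4 higher values were smaller without that line.

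The 4 higher genes are 7.84% of the members, beside 2.24% of all genes tested. The 2 lower genes are 3.92%, beside 6.14%. The members' median average difference was 0.0063, with 28 positive and 23 negative, and that of all genes was -0.0099. The difference had the same sign in all 5 lines for 8 of the 51 genes (15.7%), beside 13.1% of all genes. With the probe sets used, CDT1, DTL, RFC4 and ORC4 were positive in every line, DTL at only 0.00017 in DND41. POLA2, RPA3, GINS1 and ORC3 were negative, though RPA3, GINS1 and ORC3 were positive in T-ALL1 without its control 1. Further probe sets of CDT1, DTL and ORC4 were negative in at least 1 line, and those of POLA2 positive in at least 1. The counts on average rest on single arrays and lines. The 4 higher genes became 7 without T-ALL1 control 1 and 9 without T-ALL1 control 2, and 1 or 2 without each of 13 other arrays, and the 2 lower genes became 0 to 4 with 1 array left out. The calls of CDC6, RPA3, POLA2, CDT1 and POLD3 were lost without any 1 of 16, 14, 13, 11 and 4 arrays, with the same sign each time and an adjusted p of 0.0958 at most. Without the T-ALL1 arrays 1 gene rose and 5 fell, and without the HPB-ALL arrays 0 passed in either direction. The shares over all genes in the fits with an array or a line left out are not given here. These moves are therefore not read as particular to replication genes. With the 5 lines as replicates, 0 of the 51 genes passed in limma (0% of all genes too), and the lowest adjusted p of a member was 0.262. At an unadjusted p below 0.05 that fit had 4 members (7.84%), beside 11.9% of all genes.

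**Figure D1:**
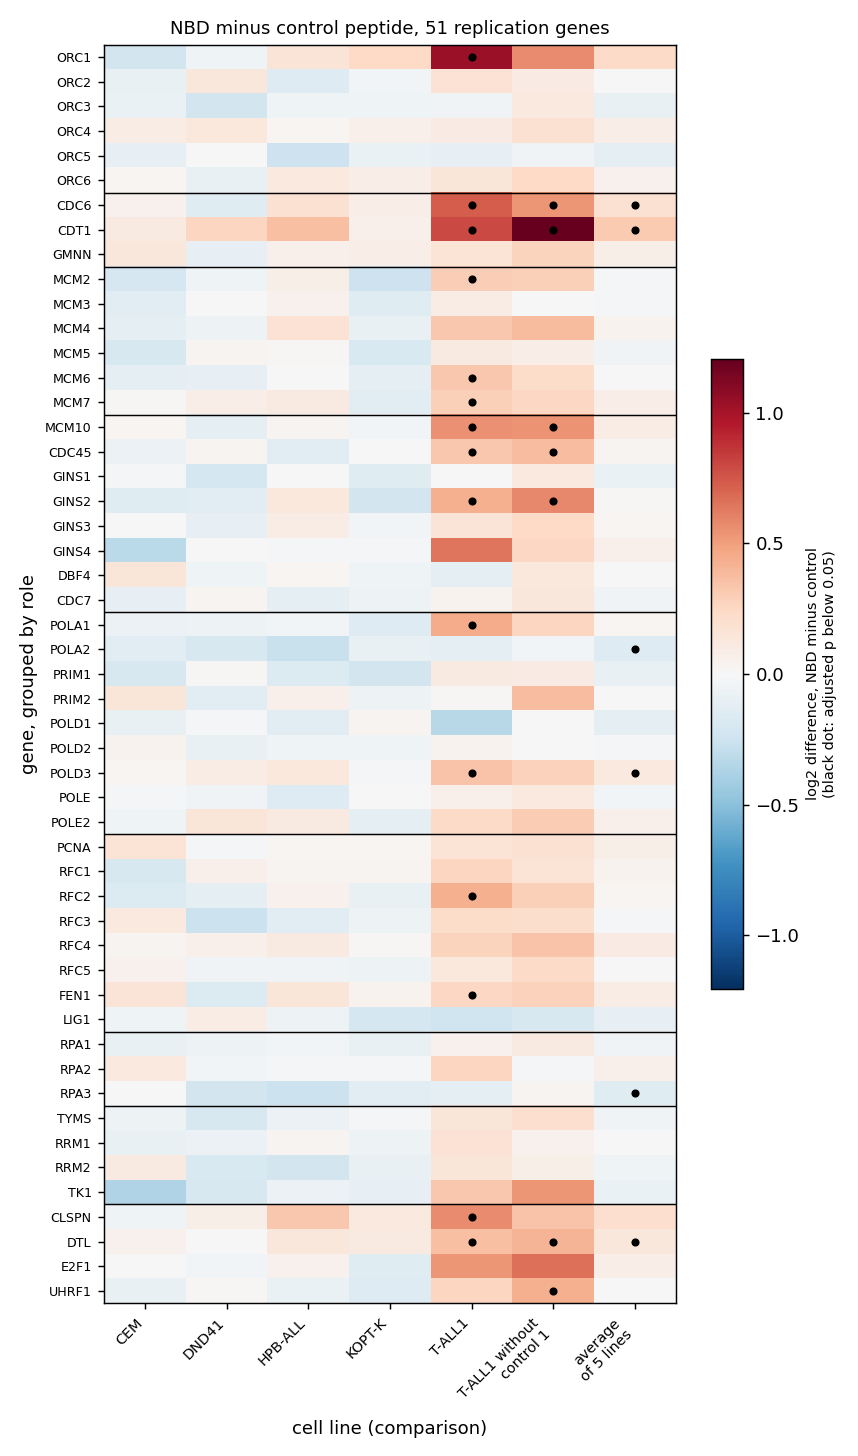
Each cell shows the log2 difference between NBD and control peptide (2 arrays each) for 1 of 51 genes, in rows grouped by role, with a column for each line, for T-ALL1 without control 1 and for the average of the 5 lines. Black dots mark an adjusted p below 0.05. The T-ALL1 columns hold 15 and 7 dots and the columns of the other 4 lines hold none.

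CDT1 was measured at intensities of 203 and 197 with NBD against 152 and 86.7 with the control peptide in T-ALL1. The other lines had 889.6 and 973 against 741 and 709 in HPB-ALL, 908 and 895 against 795 and 710.1 in DND41, 933 and 1042 against 949 and 936 in KOPT-K and 1126 and 912 against 974 and 911 in CEM. NBD and control arrays did not overlap in T-ALL1, HPB-ALL and DND41, while in KOPT-K and CEM they did, and the difference was positive in all 5 lines. Another probe set of CDT1 gave an average of 0.10 (limma adjusted p = 0.71 over all probe sets). It was negative in CEM (-0.11) and HPB-ALL (-0.01) and positive in the other lines.

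CDC6 had intensities of 389 and 363 with NBD against 199 and 260.4 with the control peptide in T-ALL1. It had 612 and 560.3 against 489.8 and 544 in HPB-ALL, 529.8 and 532 against 544 and 462 in KOPT-K, 496 and 464 against 457 and 466 in CEM and 427 and 434 against 468 and 481 in DND41. The arrays separated in T-ALL1 and HPB-ALL with NBD higher, and in DND41 with NBD lower. The other CDC6 probe set gave an average of 0.25 (limma adjusted p = 0.156 over all probe sets).

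DTL had intensities of 1709 and 1820.5 with NBD against 1424 and 1329 with the control peptide in T-ALL1. The other lines gave 2084 and 2141 against 1933 and 1898 in HPB-ALL, 2997 and 2933 against 2678 and 2825 in KOPT-K, 2669.8 and 2562 against 2459.6 and 2593 in CEM and 2038 and 2150.2 against 2131 and 2055 in DND41. NBD arrays lay above control arrays in T-ALL1, HPB-ALL and KOPT-K, and overlapped them in CEM and DND41. Of the 6 genes called on average, DTL alone kept its call without each of the 20 arrays in turn, at 0.12 to 0.14, and its second probe set passed too (0.19; limma adjusted p = 0.0218 over all probe sets).

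POLD3 had intensities of 739 and 744 with NBD against 561 and 611 with the control peptide in T-ALL1. It had 544 and 516 against 499 and 470.1 in HPB-ALL, 893 and 891 against 823 and 855 in DND41, 796 and 809 against 778 and 799 in CEM and 803 and 812 against 819.9 and 812 in KOPT-K. The groups were apart in T-ALL1, HPB-ALL and DND41 and overlapped in CEM and KOPT-K. A second probe set of POLD3 gave an average of 0.0084 (limma adjusted p = 0.969 over all probe sets), with -0.31 in KOPT-K.

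POLA2 had intensities of 243 and 254 with NBD against 303 and 294 with the control peptide in HPB-ALL. It had 296 and 259 against 313 and 320.2 in DND41, 367 and 394 against 411 and 417 in CEM, 428 and 388 against 406 and 463 in KOPT-K and 392 and 437 against 478 and 425 in T-ALL1. The NBD arrays were below the control arrays in HPB-ALL, DND41 and CEM, and overlapped them in the other two lines. The 2 other probe sets of POLA2 gave averages of -0.03 and 0.01, so the decrease was seen with 1 of 3 probe sets.

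RPA3 had intensities of 3223 and 3452 with NBD against 4104 and 3890.5 with the control peptide in HPB-ALL. It had 2806 and 2658 against 3259.7 and 3117 in DND41, 3406 and 3367 against 3701 and 3708 in KOPT-K, 3554 and 3812 against 3715 and 3658 in CEM and 2010.5 and 2069.6 against 2460.5 and 1992 in T-ALL1. Its NBD arrays were lower without overlap in HPB-ALL, DND41 and KOPT-K, and the groups overlapped in CEM and T-ALL1.

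**Figure D2:**
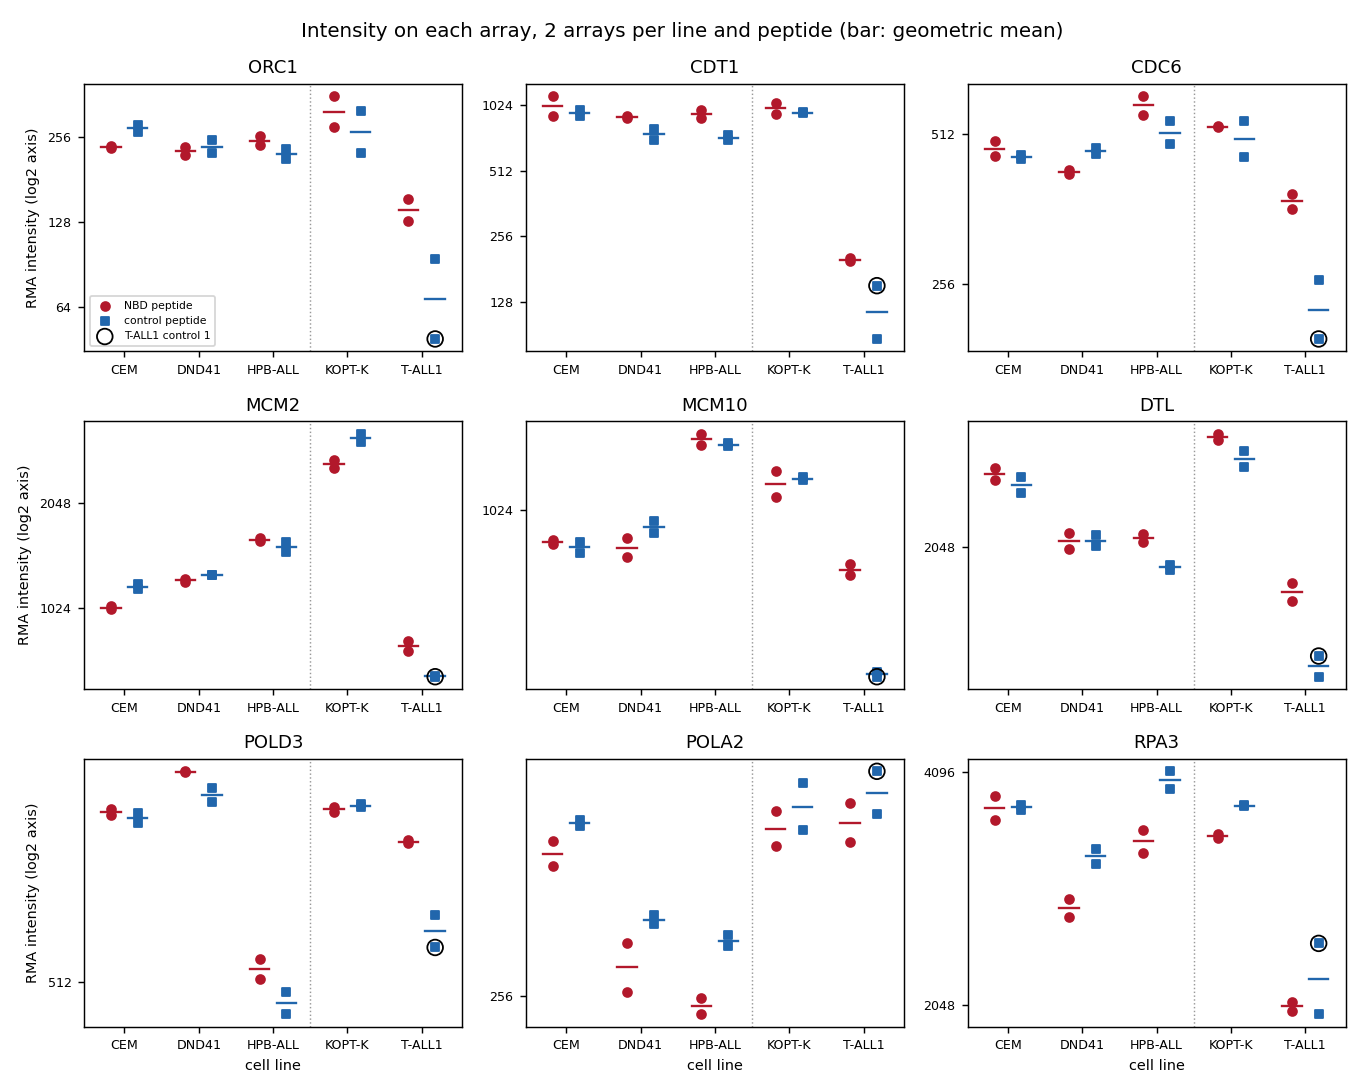
Each panel plots the RMA intensity of 1 gene on a log2 axis by cell line, with NBD arrays as red circles left of control arrays as blue squares, 2 of each, and a bar at their geometric mean. A black ring marks T-ALL1 control 1, and a dotted line parts the 3 lines on the left from KOPT-K and T-ALL1, whose columns seem to come from another normalization. CDT1 lies between 86.7 and 203 in T-ALL1 and between 933 and 1042 in KOPT-K.

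In CEM, DND41, HPB-ALL and KOPT-K, 0 of the 51 genes passed limma's adjusted threshold in any line. Over all genes, 1.13% passed in CEM, 2.47% in DND41, 0.783% in HPB-ALL and 1.28% in KOPT-K, either direction. Without T-ALL1 control 1 or without control 2, which changes the shared estimate of the spread, a few members were called lower in DND41. The shares over all genes in those fits are not given here. At an unadjusted p below 0.05 the members numbered 7 in CEM (13.7%, beside 13.4% of all genes), 6 in DND41 (11.8%, beside 14.7%), 8 in HPB-ALL (15.7%, beside 10.4%) and 4 in KOPT-K (7.84%, beside 11.8%). The members' median was -0.05 in CEM, -0.05 in DND41, 0.02 in HPB-ALL and -0.06 in KOPT-K, with 20, 18, 28 and 13 positive differences in that order of lines. The differences ran between -0.36 for TK1 and 0.16 for PCNA in CEM, between -0.26 for RFC3 and 0.26 for CDT1 in DND41, between -0.26 for POLA2 and 0.36 for CDT1 in HPB-ALL, and between -0.25 for MCM2 and 0.24 for ORC1 in KOPT-K. A difference in 1 line has an SE of 0.06 to 0.23 (median 0.08).

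In T-ALL1, 15 of the 51 genes rose with NBD and 0 fell. Most roles of the replication machinery were among them, with 1 origin recognition subunit, 2 loading factors, 3 helicase subunits, 3 firing factors, 2 polymerase subunits, 2 clamp and joining genes and 2 S-phase regulators. The 15 are 29.4% of the members, beside 1.15% of all genes called higher in T-ALL1, and 2.3% of all genes were called lower. The median over all 51 was 0.18, with 43 positive, beside -0.01 over all genes. At an unadjusted p below 0.05 there were 30 members (58.8%), in either direction, beside 20.8% of all genes. Without T-ALL1 control 1, 7 genes rose (13.7%, beside 0.704% of all genes), 6 of them among the 15, and 0 fell (0.566% of all genes). The median was then 0.23 with 44 positive, beside -0.0004 over all genes. The sign turned for 7 members, none of them called, to 0.12 for ORC3, 0.12 for GINS1, 0.13 for DBF4, 0.03 for RPA3, -0.010 for RPA2, -0.0039 for MCM3 and -0.00098 for POLD2. Without control 2 instead, 22 genes rose, all 15 among them, and 3 fell, beside 1195 and 1921 of all genes. Fewer members were called higher without NBD 1 or without NBD 2, with the lone NBD array assumed to vary like the other groups. The shares over all genes in those fits are not given here. Of the 15 calls, that of CDC6 was lost without NBD 1, those of CDC45, GINS2 and DTL without either NBD array, and those of ORC1, MCM2, MCM7, POLD3 and RFC2 without control 1 or either NBD array. The calls of CDT1, POLA1, FEN1, CLSPN and MCM6 were lost without any 1 of 6 to 15 arrays, some of them of other lines, and that of MCM10 was kept throughout.

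Both T-ALL1 NBD arrays lay above both control arrays for 35 of the 51 genes (68.6%), beside 18.7% of all genes, and below both for 2 (3.92%), beside 24% of all genes. Set singly against the mean of the NBD arrays, control 1 was lower for 40 members with a median of -0.19, and control 2 for 44 with a median of -0.23. Both control arrays thus stood on the same side of the NBD arrays for most members. They differed from each other by a median of 0.178 over the members, against 0.066 between the NBD arrays of T-ALL1 and 0.035 to 0.079 in the other groups. With the actin 3′ to 5′ difference as a covariate, 2 genes remained past the threshold in T-ALL1, CDT1 and GINS2. The members' median was then 0.25, beside 0.05 over all genes, against 0.18 and -0.01 without the covariate. The share of all genes called in that fit is not given here. That covariate separates the peptides in T-ALL1, so the part of RNA quality and that of the peptide cannot be told apart there.

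Of the origin recognition genes, ORC1, the subunit whose protein comes and goes with the cell cycle, rose by 1.04 ± 0.23 (2.06-fold; limma adjusted p = 0.0315), the largest change among the members in T-ALL1 when all arrays and the brightest probe set of each gene are used. Its intensities were 129 and 154 with NBD against 49.3 and 94.5 with the control peptide in T-ALL1. The groups did not overlap, but the control arrays differed almost as much from each other as from the NBD arrays, and without control 1 the difference was 0.57 ± 0.19 (adjusted p = 0.176). The other 5 subunits gave -0.10 for ORC5 to 0.17 for ORC2, and none passed. Without control 1 these 2 gave -0.04 and 0.10. A second ORC2 probe set was at -0.47, and at -0.26 without control 1.

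Both loading factors rose. CDC6 gained 0.73 ± 0.11 (1.65-fold; adjusted p = 0.00581), and 0.53 ± 0.10 without control 1 (adjusted p = 0.0307). CDT1 gained 0.80 ± 0.18 (1.74-fold; adjusted p = 0.0347), and 1.20 ± 0.12 without control 1 (adjusted p = 0.000775), and control 1 held more of it than control 2. The other CDT1 probe set gave 0.18 in T-ALL1 and did not pass (limma adjusted p = 0.72 over all probe sets). It gave 0.51 without control 1. GMNN, the CDT1 inhibitor geminin, gave 0.16 ± 0.07 and did not pass (adjusted p = 0.209). Without control 1 GMNN was at 0.27.

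All 6 subunits of the MCM helicase had positive differences in T-ALL1 with all arrays and the probe sets used, and 3 passed. MCM6 rose by 0.32 ± 0.08, MCM2 by 0.29 ± 0.06 and MCM7 by 0.29 ± 0.06, with adjusted p of 0.0368, 0.0266 and 0.0294. MCM4, MCM5 and MCM3 gave 0.33, 0.11 and 0.09 and did not pass. Without control 1 they gave 0.38, 0.08 and -0.0039. A second MCM5 probe set was at -0.05 in T-ALL1, and at 0.05 without control 1. A second MCM4 probe set was at 1.19 and passed over all probe sets (limma adjusted p = 0.0222), and was at 0.64 without control 1 (adjusted p = 0.128). With the probe sets used, none of the 6 passed without control 1, and MCM2, MCM6 and MCM7 gave 0.29, 0.22 and 0.25. In KOPT-K all 6 differences were negative, between -0.25 for MCM2 and -0.09 for MCM4, and in HPB-ALL all 6 were positive, at most 0.17, with none past the threshold in either line.

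MCM2 was 1 of 2 members whose NBD effect differed between lines by limma's moderated F-test (adjusted p = 0.0239), beside 1.83% of all genes. Its intensities were 771 and 824 with NBD against 649 and 652 with the control peptide in T-ALL1. They were 2727 and 2576 against 3066 and 3243 in KOPT-K, 1033 and 1015 against 1158 and 1198 in CEM, 1243 and 1218 against 1271 and 1272 in DND41 and 1589 and 1627 against 1480.4 and 1578 in HPB-ALL. NBD arrays lay above control arrays in T-ALL1 and HPB-ALL and below them in KOPT-K, CEM and DND41.

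MCM10, a firing factor that binds the loaded helicase, was the other (adjusted p = 0.0116). Its intensities were 808 and 843 with NBD against 559 and 569 with the control peptide in T-ALL1. The other lines had 1300.1 and 1354 against 1306 and 1295 in HPB-ALL, 1180.2 and 1075 against 1156 and 1142 in KOPT-K, 918 and 907 against 878 and 913 in CEM and 926 and 863 against 986 and 944 in DND41. Its T-ALL1 control arrays were close to each other and far below the NBD arrays. The gene rose by 0.55 ± 0.07 in T-ALL1 (1.46-fold; adjusted p = 0.00115), by 0.54 ± 0.08 without control 1 (adjusted p = 0.00725), and by 0.52 to 0.58 without each of the 20 arrays in turn, past the threshold each time. Its differences in the other 4 lines ran from -0.11 to 0.03 with the probe set used. Its other probe sets gave 0.41 and 0.39 in T-ALL1, and 0.19 and 0.10 in KOPT-K. Neither passed in T-ALL1 (limma adjusted p = 0.161 and 0.0521 over all probe sets). Without control 1 they gave 0.69 and 0.52. Over all probe sets the limma F-test gave them an adjusted p of 0.728 and 0.316, and the probe set used 0.0579. The number of members whose effect differed between lines rose without T-ALL1 control 1 or control 2. It fell without T-ALL1 NBD 2 and without each of 9 other arrays. Each of these fits leaves 1 array in a group, and the shares over all genes in them are not given here. These moves are therefore not read as particular to replication genes.

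Among the other firing factors, CDC45, which completes the active helicase with GINS, rose by 0.33 ± 0.07 (adjusted p = 0.0212) and by 0.37 ± 0.07 without control 1 (adjusted p = 0.0347). GINS2, a GINS subunit, had intensities of 429 and 410.0 with NBD against 346 and 280.4 with the control peptide in T-ALL1. It rose by 0.43 ± 0.09 (adjusted p = 0.0266) and by 0.58 ± 0.08 without control 1 (adjusted p = 0.00725). The other GINS subunits gave -0.0037 for GINS1, 0.16 for GINS3 and 0.65 for GINS4, and the kinase genes -0.11 for DBF4 and 0.04 for CDC7. None of these 5 passed. GINS4 was at 0.25 without control 1 and 1.05 without control 2, GINS3 at 0.24 and CDC7 at 0.14 without control 1, and the signs of GINS1 and DBF4 turned, as given above.

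Of the 9 polymerase and primase genes, POLA1, the catalytic subunit of polymerase alpha, rose by 0.45 ± 0.10 (adjusted p = 0.0354) and POLD3 by 0.34 ± 0.06 (adjusted p = 0.0138). Without control 1 they gave 0.26 ± 0.09 and 0.28 ± 0.06 and neither passed (adjusted p = 0.191 and 0.0596). The other 7 ran between -0.33 for POLD1, the catalytic subunit of polymerase delta, and 0.23 for POLE2, a subunit of polymerase epsilon. POLD1 had intensities of 350.9 and 368 with NBD against 565 and 361 with the control peptide in T-ALL1. Its control arrays differed widely, and its difference was -0.01 without control 1 and -0.65 without control 2. POLE2 was at 0.31 without control 1.

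Among the clamp and lagging-strand genes, RFC2, a subunit of the clamp loader, rose by 0.42 ± 0.09 and the flap nuclease FEN1 by 0.25 ± 0.06 (adjusted p = 0.0298 and 0.0347). Neither passed without control 1, at 0.29 and 0.28. PCNA gave 0.17, RFC1, RFC3, RFC4 and RFC5 0.12 to 0.27, and the ligase LIG1 -0.24. Without control 1 PCNA gave 0.19, RFC1 0.17, RFC3 0.21, RFC5 0.23, RFC4 0.35 and LIG1 -0.19. The 3 RPA genes gave -0.12 for RPA3, 0.05 for RPA1 and 0.26 for RPA2, and 0.03, 0.11 and -0.010 without control 1, so their order and 2 of their signs rest on that array. With the probe sets used, the 4 nucleotide supply genes were all positive, from 0.14 for RRM2 to 0.32 for the thymidine kinase TK1, and none passed. Another TK1 probe set was at -0.05, and at 0.15 without control 1. Without control 1 TK1 was at 0.53, TYMS at 0.21, RRM1 at 0.06 and RRM2 at 0.07. A second probe set of TYMS, the thymidylate synthase, was at 0.61 and passed over all probe sets (limma adjusted p = 0.0315), and was at 0.31 without control 1 (adjusted p = 0.159).

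All 4 S-phase regulators had positive differences. CLSPN, the checkpoint adaptor claspin, rose by 0.57 ± 0.14 (adjusted p = 0.0415) and DTL by 0.36 ± 0.07 (adjusted p = 0.0138). Without control 1, DTL rose by 0.41 ± 0.07 (adjusted p = 0.0196) and CLSPN, at 0.34 ± 0.13, did not pass. E2F1, the transcription factor, gave 0.53 ± 0.14 (adjusted p = 0.0557), and 0.66 without control 1. UHRF1, which brings the maintenance DNA methyltransferase to new DNA, passed only without control 1, at 0.43 ± 0.08 (adjusted p = 0.0196), against 0.26 ± 0.09 with all arrays. Its intensities were 981 and 981 with NBD against 922 and 729 with the control peptide in T-ALL1, and control 1 lay nearer to the NBD arrays than control 2.

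**Figure D3:**
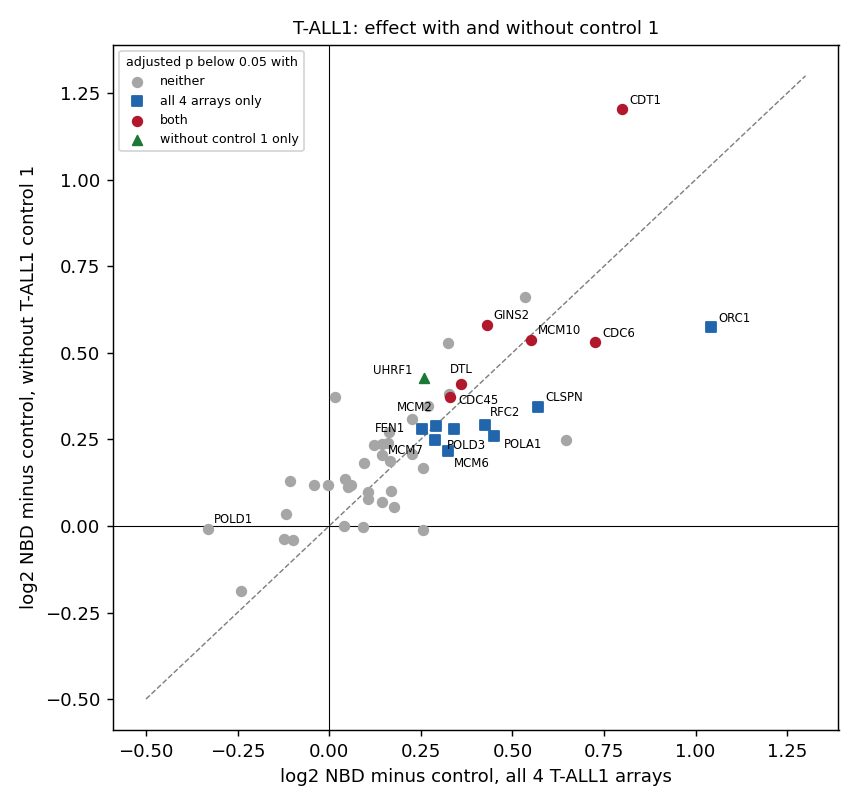
Each point is 1 of 51 genes, with the log2 difference between NBD and control peptide in T-ALL1 from all 4 arrays on the x axis and without control 1 on the y axis. The dashed line marks equal values. Genes in the upper right are higher with NBD either way, 43 of 51 on the x axis and 44 on the y axis, CDT1 lies above the line and ORC1 below it.

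The members were measured by 95 probe sets, and 23 members had 1 each. Of the 15 genes called in T-ALL1, 11 had 15 further probe sets, of which 13 were above the filter. All 13 were positive in T-ALL1 and 5 passed over all probe sets. Without control 1 these 5 gave 0.47 for CDC6, 0.74 for DTL, 0.31 for FEN1, 0.25 for MCM7 and 0.38 for RFC2. A GINS2 probe set turned from 0.16 to -0.03. The 15 genes were picked by their calls on these same arrays, so this is no separate test. Of the other members, 17 had 29 further probe sets, 26 of them above the filter, of which 22 were positive and 4 passed, those of MCM4 and TYMS, of RFC3 at 1.01 and of RPA1 at 0.40. Without control 1 none of these 4 passed, at 0.24 for RPA1 to 0.64 for MCM4. Further probe sets of ORC2 (-0.47), GINS4 (-0.09), MCM5 (-0.05) and TK1 (-0.05) were negative with all arrays, and none was called lower. Without control 1 they gave -0.26, 0.02, 0.05 and 0.15 in that order. With all T-ALL1 arrays the median difference was 0.24 for the 22 members with an E2F word in their promoter window, 9 of them called higher. It was 0.14 for the 23 without, 5 of them called. The share called among all genes with or without such a word was not computed, nor were these values without control 1. A link between the words and the differences was not tested.

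A wider list of 50 genes of the same pathway (cyclins and checkpoint kinases of S phase, further E2F factors, chromatin assembly and repair genes) was described beside them, of which 47 were tested. On average over the lines 4 rose (8.51%, beside 2.24% of all genes) and 2 fell (4.26%, beside 6.14%). E2F2, a further E2F factor, rose by 0.17 ± 0.03, the exonuclease EXO1 by 0.15 ± 0.04 and CHAF1A, of the histone chaperone that assembles chromatin behind the fork, by 0.12 ± 0.03. RNASEH2A, a subunit of RNase H2, fell by 0.20 ± 0.03 and POLD4, a small subunit of polymerase delta, by 0.14 ± 0.04. The median of the 47 was 0.0064. In T-ALL1 9 rose (19.1%, beside 1.15% of all genes) and 0 fell, with a median of 0.13, and without control 1 there were 11 (23.4%, beside 0.704%) and a median of 0.23. The 3 largest were CCNE1, which encodes cyclin E1, at 0.66, EXO1 at 0.65 and CDCA7 at 0.63, and without control 1 they were at 0.71, 0.68 and 0.31, and CDCA7 no longer passed (adjusted p = 0.234). In DND41 1 rose (E2F2) and 1 fell, and 0 passed in CEM, HPB-ALL and KOPT-K.

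The lines also differed in how much of these transcripts they held with either peptide. Values were compared within the 2 sets of arrays that appear to share a normalization. T-ALL1 held less than KOPT-K of 38 of the 51 genes (74.5%, beside 26.5% of all genes) and more of 9 (17.6%, beside 33.9%), by limma over both peptides. The median difference was -0.60, beside 0.04 over all genes. With the NBD arrays alone, an alternative chosen after seeing the data, 32 were lower (62.7%, beside 23.5% of all genes). In that comparison 8 were higher (15.7%, beside 28.4%). The median was -0.45, beside 0.08 over all genes. Most of these genes were thus lower without the T-ALL1 control arrays as well.

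CDT1, UHRF1, GINS2, MCM6 and MCM2 were among the genes that differed most. CDT1 had 86.7 to 203 on the 4 T-ALL1 arrays and 933 to 1042 on the 4 KOPT-K arrays (-2.67 ± 0.13 on the log2 scale, SE; adjusted p = 2.48e-10). MCM2 had 649 to 824 on the 4 T-ALL1 arrays and 2576 to 3243 on the 4 KOPT-K arrays, and MCM6 1227 to 1726 on the 4 T-ALL1 arrays and 5981 to 6584 on the 4 KOPT-K arrays. For none of these genes did the ranges overlap. All 6 MCM genes were lower in T-ALL1, from -2.09 for MCM6 to -1.002 for MCM7 on the log2 scale, and from -1.87 to -0.80 on the NBD arrays alone. UHRF1 (-2.33), GINS2 (-2.28), ORC1 (-1.56), POLE (-1.32, the catalytic subunit of polymerase epsilon) and RFC5 (-1.31) were lower too.

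The 9 genes higher in T-ALL1 were RFC3, ORC5, CDC7, GINS1, ORC3, POLD1, ORC2, PRIM1 and ORC4. POLD1, at 0.27, was at 0.08 on the NBD arrays alone and did not pass there (limma adjusted p = 0.686). RFC3 had 1836 to 2195 on the 4 T-ALL1 arrays and 1280.4 to 1387 on the 4 KOPT-K arrays (0.60 ± 0.05; adjusted p = 4.08e-08). ORC2 to ORC5 were thus higher in T-ALL1, by 0.21 to 0.46, whereas ORC1 and ORC6 (-0.22) were lower, so subunits of 1 complex went opposite ways. On the NBD arrays alone ORC1 was at -1.16, while ORC6 was at -0.19 and did not pass (limma adjusted p = 0.0673). GINS1 was higher by 0.37 and GINS2, GINS3 and GINS4 were lower. The 4 genes that passed in neither direction were DBF4, POLA2, PRIM2 and TK1.

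**Figure D4:**
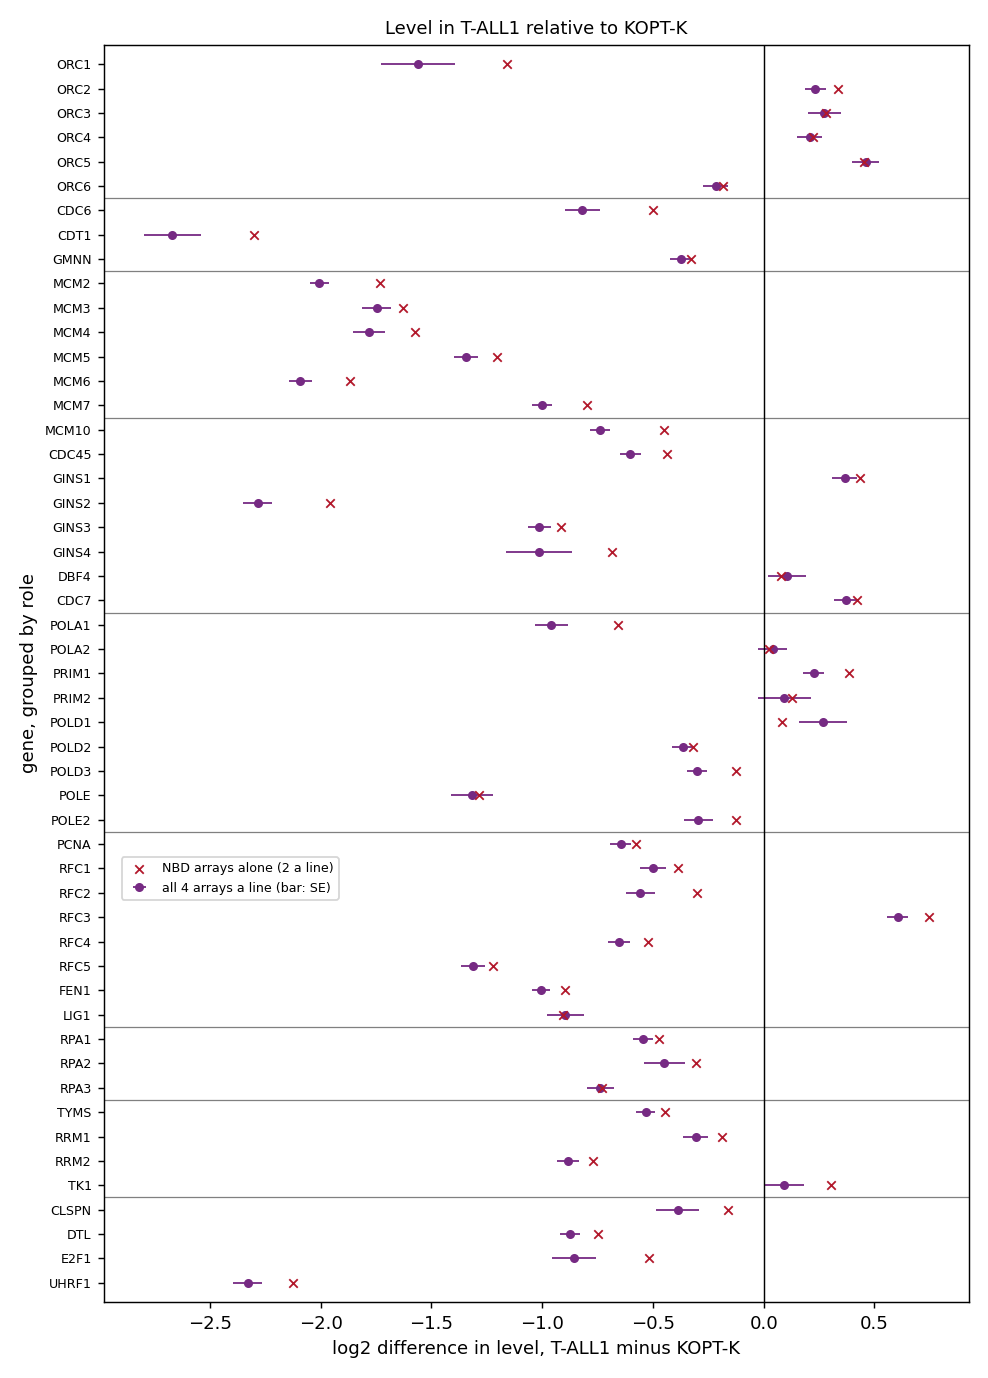
The x axis gives the log2 difference in level, T-ALL1 minus KOPT-K, for each of 51 genes in rows grouped by role. Circles with SE bars use all 4 arrays of each line and crosses the 2 NBD arrays. Most genes lie left of 0, among them all 6 MCM genes, with CDT1 at -2.67 and RFC3 farthest right at 0.60.

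Among HPB-ALL, DND41 and CEM, the level differed for 44 of the 51 genes (86.3%), beside 70.3% of all genes, by limma's moderated F-test over both peptides. The level was highest in HPB-ALL for 20 genes (39.2%, beside 36.7% of all genes), in DND41 for 12 (23.5%, beside 30.4%) and in CEM for 19 (37.3%, beside 32.8%). No line held the most of every role. Of the MCM genes, 5 were higher in HPB-ALL than in CEM (28.3% of all genes were) and 4 were higher in DND41 than in CEM (24.6% of all genes were), with MCM2 at 1568 in HPB-ALL, 1251 in DND41 and 1098 in CEM (geometric mean intensity of 4 arrays).

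The large differences were single genes. RFC3 had 1046 in HPB-ALL, 598 in DND41 and 1358 in CEM, a difference of -1.18 ± 0.05 for DND41 minus CEM and 0.81 ± 0.05 for HPB-ALL minus DND41. RRM2, the regulated subunit of ribonucleotide reductase, had 3054 in HPB-ALL, 3920.2 in DND41 and 7017 in CEM, with -1.20 ± 0.05 for HPB-ALL minus CEM. PRIM1, the catalytic primase subunit, had 655 in HPB-ALL, 810.4 in DND41 and 1403 in CEM, and POLD3 507 in HPB-ALL, 865 in DND41 and 796 in CEM. CEM was the highest line for RFC3, RRM2 and PRIM1, whereas POLD3 was lowest in HPB-ALL and differed by 0.12 ± 0.04 for DND41 minus CEM.

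CEM in turn held the least CDC7, GINS3 and POLE2. CDC7 had 990.2 in HPB-ALL, 1139 in DND41 and 581 in CEM, with 0.97 ± 0.05 for DND41 minus CEM, and GINS3 had 770.0 in HPB-ALL, 759 in DND41 and 454 in CEM. MCM10 was highest in HPB-ALL, at 1313 in HPB-ALL, 928 in DND41 and 904 in CEM, with 0.04 ± 0.05 for DND41 minus CEM. DBF4, the partner of CDC7, ran the other way from it, at 3134 in HPB-ALL, 2096 in DND41 and 3263 in CEM. The 7 genes that did not pass were ORC1, ORC5, CDT1, PRIM2, POLD1, POLE and TYMS, which was at 10439 in HPB-ALL, 10758 in DND41 and 11109 in CEM.

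**Figure D5:**
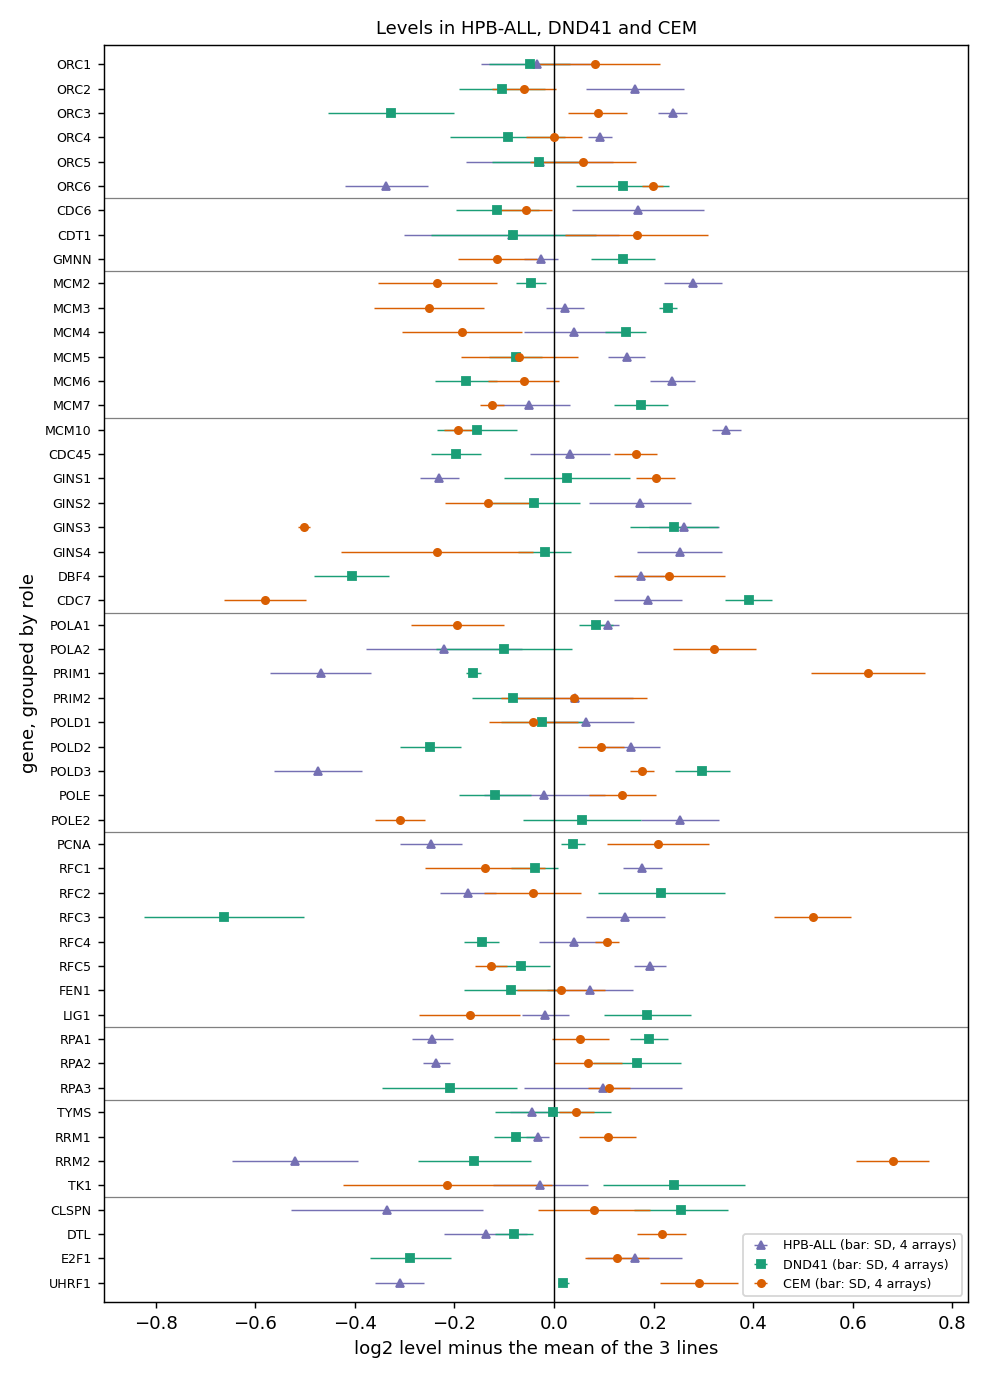
The x axis gives each gene's mean log2 level in HPB-ALL (triangles), DND41 (squares) and CEM (circles) minus the mean of the 3 lines, with SD bars over 4 arrays, and rows are grouped by role. RRM2, PRIM1 and RFC3 lie far right in CEM, and CDC7 and GINS3 far left.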

How the data were processed

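The authors deposited 1 table of linear intensity values for 54675 probe sets on 20 arrays, and the submitters' processing notes name RMA, with no version. Per the labels' protocols, RNA was column-purified, and 20 ng went into a repeated amplification that ended in biotin-labelled cRNA. The T-ALL1 and KOPT-K columns hold up to 7 decimals (mean intensity 387 to 396) and the others 2 decimals (341 to 348). The 2 sets therefore seem to be separate normalizations, which no source used here states, and levels were compared within a set only. Both peptides of a line share a set. The number of arrays limits the precision.

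Values were taken to log2 with no pseudocount. Probe sets with 1 gene in the platform table were used (41097 of 54675), and of several probe sets for a gene the brightest, by its mean on all 20 arrays, stood for it. Genes stayed in when at or above the median of all values (31.96) on at least 2 arrays, which left 13787 of 19775. Effects were tested in limma 3.58.1 (R 4.3.3; lmFit and eBayes; 10 residual and 3.42 prior degrees of freedom) with 1 mean for each of 10 groups, and with Benjamini-Hochberg adjustment over all genes. The average effect weights the 5 lines equally, and a fit on group means with the line as a block takes lines as replicates. The procedures were tested on simulated data. Alternatives were the normalization, the filter, the gene summary, 16 added before log2, the prior, a replicate block, the actin difference as a covariate, lines left out and each array left out. The members, gene lists and tests were chosen with earlier results of these data known. All 51 members are accounted for. Per-array values were set out for genes called on average or in the test between lines and for the 2 largest changes in a line, and each role's largest average change is among the genes named. Of the wider list the 3 largest changes past the threshold in each direction are named. Promoter windows and gene names come from RefSeq (GRCh38.p14). Some genes of the wider list were not analysed here.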

Additional observations from a re-analysis of the deposited data

Results flagged for a closer look

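The NBD effect on MCM10 differed between the 5 lines (limma moderated F-test, adjusted p = 0.0116). It was 0.55 ± 0.07 on the log2 scale in T-ALL1 and between -0.11 and 0.03 in the other lines, and without T-ALL1 NBD 2 the adjusted p was 0.0583. The NBD effect on MCM2 also differed (adjusted p = 0.0239), from 0.29 ± 0.06 in T-ALL1 and 0.07 in HPB-ALL to -0.20 in CEM and -0.25 in KOPT-K, and that call was lost without any 1 of 10 arrays, where the adjusted p reached 0.0785. The actin 3′ to 5′ difference moves with the peptide in T-ALL1 (1.07 and 0.992 with NBD against 3.16 and 2.05 with the control peptide), and with it as a covariate the adjusted p was 0.0895 for MCM10 and 0.0971 for MCM2. Over all probe sets the limma F-test gave an adjusted p of 0.0579 for MCM10 and 0.108 for MCM2 with the probe sets used. It was 0.728 and 0.316 for the other MCM10 probe sets.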

How the results depend on the processing

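The replicate numbers of the labels did not pair the arrays: deviations of same-numbered arrays from their group means correlated at -0.28 to 0.14 over the lines. With the number as a replicate block, members higher on average were 1, lower 0, higher in T-ALL1 2 and differing between lines 0. All counts in this paragraph are of members alone. The shares over all genes under these settings are not given here, so the moves are not read as particular to replication genes. Higher on average (4 with the settings reported) became 2 with the mean of all probe sets, 2 with no filter, 9 with a trended robust prior, 2 with the actin covariate, 0 without HPB-ALL, 1 without T-ALL1, 0 with KOPT-K and T-ALL1 alone and 1 with CEM, DND41 and HPB-ALL alone. Lower on average (2) became 1, 0, 2 with that prior and 0 with the actin covariate under the same settings, 1 without CEM, 0 without DND41, 0 without HPB-ALL, 1 without KOPT-K, 5 without T-ALL1, 0 with KOPT-K and T-ALL1 alone and 4 with the other 3 lines. Higher in T-ALL1 (15) became 8 with no filter and 2 with the actin covariate. Lower in DND41 (0) became 1 with quantile normalization, 3 with the trended prior and 1 with the actin covariate, and lower in KOPT-K (0) became 1 with the trended prior. Differing between lines (2) became 4 with quantile normalization, 1 with median centring, 1 with no filter, 5 with 16 added before log2, 10 with the trended prior, 1 with the actin covariate, 1 without CEM, DND41, HPB-ALL or KOPT-K, 0 without T-ALL1, and 0 in either set of lines alone. With 1 array left out, the counts ran from 1 to 9 higher and 0 to 4 lower on average, 1 to 22 higher and 0 to 3 lower in T-ALL1, 0 to 2 lower in DND41 and 0 to 18 differing between lines. The level counts (44 and 47) stayed at 41 to 45 and 46 to 50. Without T-ALL1 control 1, 7 members not called in T-ALL1 turned their sign, as given with the results. Of the 23 single-gene results followed over the alternatives, all of them called, 3 turned their sign under 1 alternative each: with the actin covariate ORC1 was -0.35 and POLA1 -0.025 in T-ALL1, and 1 further probe set gave 0.0069 for the average of POLA2. The causes were not tested.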

Other observations

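The 4 nucleotide supply genes (TYMS, RRM1, RRM2 and TK1) were read with their brightest probe sets. All were lower with NBD in DND41 (median -0.19) and in KOPT-K (median -0.07). They were all higher in T-ALL1 (median 0.16, and 0.14 without control 1), and none passed the threshold in any of these 3 lines. Another TK1 probe set was at -0.05 in T-ALL1. Of the wider pathway list, CCNE1, EXO1 and CDC25A, a phosphatase that activates cyclin-dependent kinases, had NBD effects that differed between lines (limma moderated F-test, adjusted p = 0.00433, 0.0258 and 0.0278). CCNE1 was at 0.66 in T-ALL1 (0.71 without control 1) and at -0.29 in KOPT-K, -0.24 in CEM and -0.24 in DND41. EXO1 was at 0.65 in T-ALL1 and at -0.09 in DND41. CDC25A was at 0.45 in T-ALL1 and at -0.15 in DND41. These genes were named after their values were seen.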
